A study of Mus musculus with 6 samples.

Results

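The 36 genes described here encode proteins of the synapse. They comprise 27 presynaptic genes, for the vesicle, the fusion machinery, the active zone and adhesion, and 9 postsynaptic genes, for adhesion and scaffolds. Members were taken by gene name, with no threshold on a measured value, though the list was drawn up with earlier results of these data known. All 36 were found among the 17348 genes of the table. RNA-seq had been performed on mouse cortex at E13.5, in mid-gestation, with 3 libraries labelled WT and 3 labelled cKO. In the cKO embryos floxed Ybx1 alleles, which encode the RNA-binding protein Y-box binding protein 1, were deleted by Nestin-Cre, a Cre recombinase expressed in neural progenitors and their progeny. The study's methods call the RNA-seq controls wild type littermates and define its control genotype elsewhere as Ybx1 fl/fl without Cre, so an effect of Cre alone and of the deletion cannot be told apart here. The mice were on a C57BL/6J background. The libraries were used to ask which synaptic genes were already detected at this age, how they varied between libraries, and whether they differed between the genotypes.

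The libraries held 15907486 to 16282921 estimated read counts each. Ybx1 itself was measured at 1021, 528 and 1220 CPM (read counts scaled to library size) in WT and at 83.1, 117 and 147 CPM in cKO. In the library labelled WT replicate 2 it was therefore intermediate between both genotypes. The fold change of Ybx1 was -3.00 on the log2 scale (SE 0.33), with an adjusted p of 0.128 in edgeR's quasi-likelihood test. cKO replicate 3 also stood apart, since summed TPM (a level corrected for transcript length and library size) of 8 meninges and epidermis markers was 525 there and 3.99 to 6.43 in the other 5 libraries. Cortical neuron markers were present in all 6 libraries, with a summed TPM of 3795 to 5163 over 12 genes. In bulk tissue, fewer cells of a type and less RNA per cell cannot be told apart.

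At a synapse, vesicles filled with transmitter fuse with the presynaptic membrane when the vesicle SNARE protein and its partners on the membrane zip together, a step triggered by calcium bound to synaptotagmin. The active zone is the protein scaffold that holds primed vesicles beside calcium channels, and neurexins on this side bind neuroligins on the receiving cell, where PSD-95, Shank and Homer proteins anchor receptors. In the cortex at mid-gestation newborn neurons are leaving the progenitor zone, well before most cortical synapses form.

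Promoter sequence was taken from RefSeq (GRCm38.p6), in which 26 of the 36 genes had 41 windows running from 250 bases before to 50 bases after a transcription start. The windows were searched on both strands for the GC box GGGCGG, the cAMP response element TGACGTCA, the E-box CAGATG bound by proneural factors, and TTCAGCAC, the left part of the RE1 element bound by the neuronal gene repressor REST. The GC box stood in 20 of the 41 windows (48.8%) and in 35.7% of all 32851 windows. TTCAGCAC stood in 3 windows (7.32%), those of Nlgn1, Syn1 and Unc13a, and in 1.17% of all windows. The CAGATG E-box stood in 4 windows (9.76%) against 17.2% of all windows. TGACGTCA was found only for Syn1 among the 41 windows, against 1.79% of all windows. A match is a run of letters and not a shown binding site. The 250 bases before the start are printed for Syn1, which held both of the rarer motifs, and for the vesicular glutamate transporters Slc17a7 and Slc17a6, whose ratio is described further on. Capitals mark matches to the 4 motifs on either strand, and overlapping matches run together. The Syn1 window lies at chrX:20920919-20921168 on the minus strand, the Slc17a7 window at chr7:45163671-45163920 and the Slc17a6 window at chr7:51621580-51621829, both on the plus strand.
Syn1: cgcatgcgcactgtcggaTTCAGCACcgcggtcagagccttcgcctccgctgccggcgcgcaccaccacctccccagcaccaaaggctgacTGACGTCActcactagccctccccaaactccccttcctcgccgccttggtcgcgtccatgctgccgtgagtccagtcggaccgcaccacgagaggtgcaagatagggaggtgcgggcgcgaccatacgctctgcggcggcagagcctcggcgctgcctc
Slc17a7: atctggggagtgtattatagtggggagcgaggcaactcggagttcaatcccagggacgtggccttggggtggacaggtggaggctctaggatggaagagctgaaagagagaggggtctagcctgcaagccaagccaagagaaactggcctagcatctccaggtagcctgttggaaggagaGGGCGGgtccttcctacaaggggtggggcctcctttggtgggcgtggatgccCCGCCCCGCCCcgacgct
Slc17a6: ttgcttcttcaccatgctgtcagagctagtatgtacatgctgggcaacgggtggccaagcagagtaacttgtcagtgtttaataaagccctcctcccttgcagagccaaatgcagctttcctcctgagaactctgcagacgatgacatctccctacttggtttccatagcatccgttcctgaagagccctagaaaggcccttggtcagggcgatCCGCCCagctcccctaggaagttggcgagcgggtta
The stretches shown held 1 TGACGTCA and 1 TTCAGCAC for Syn1, 3 GC boxes for Slc17a7 and 1 GC box for Slc17a6.

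Nearly all of the synaptic genes were already detected at E13.5. Mean TPM over the 6 libraries was at least 1 for 35 of the 36 genes, and for 73.7% of all genes in the table. Of these, 4 genes (Syt11, Rab3a, Vamp2 and Cplx2) had a mean of at least 100 TPM, a level reached by 10.8% of all genes, and all 4 were presynaptic. A further 7 lay between 50 and 100 TPM, 16 between 10 and 50 TPM, 8 between 1 and 10 TPM, and 1 below 1 TPM. The medians of the 2 sides were close, at 24.5 TPM over the presynaptic and 23.5 TPM over the postsynaptic genes.

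**Figure D1:**
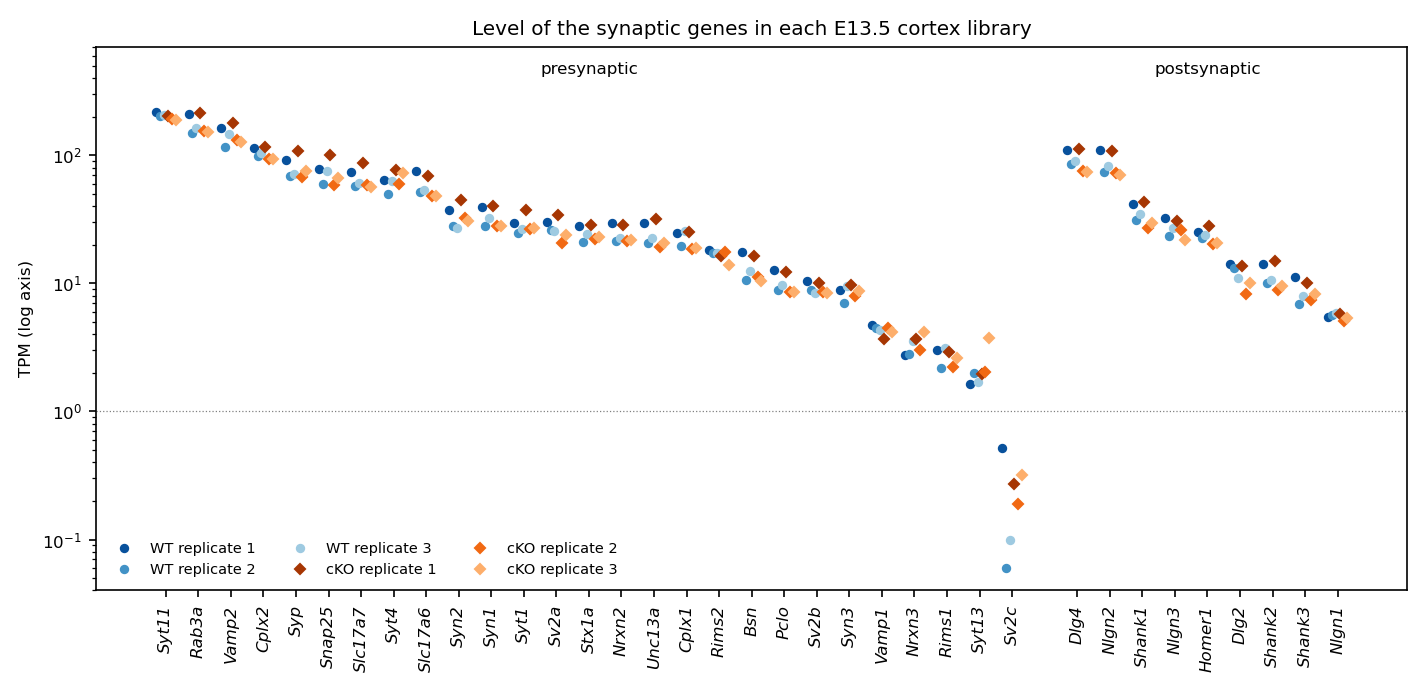
TPM of each synaptic gene in each of the 6 libraries (log axis), ordered by mean level within the presynaptic and postsynaptic genes. Circles are WT and diamonds cKO libraries, and the dotted line marks 1 TPM. All genes but Sv2c lay above that line in every library, and the dark symbols of the 2 replicate 1 libraries lay above the others for most genes.

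Among the synaptotagmins and vesicle proteins, levels spanned the range of the 36 genes. Syt11, a synaptotagmin that does not bind calcium and acts in membrane traffic, was the most abundant, at 218, 204 and 205 TPM in the 3 WT libraries and 202, 193 and 188 TPM in the 3 cKO libraries. Rab3a, the small GTPase of synaptic vesicles, followed at 211, 149 and 162 TPM in WT and 214, 155 and 151 TPM in cKO. The cKO libraries lay below every WT library for Syt11, whereas for Rab3a the replicate 1 libraries of both genotypes stood above the other 4. Syt4, a synaptotagmin of dense-core and other secretory vesicles, was measured at 63.7, 50.1 and 62.4 TPM in WT and at 76.8, 59.6 and 72.5 TPM in cKO. Syt1, the calcium sensor of fast transmitter release, ranged from 24.9 to 37.5 TPM, and was thus less abundant at this age than Syt11 and Syt4 in every library. Syt13, another synaptotagmin without calcium binding, was low, at 1.64, 1.99 and 1.71 TPM in WT and 1.96, 2.02 and 3.74 TPM in cKO, and the highest value was that of cKO replicate 3 alone.

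The vesicle glycoprotein Syp (synaptophysin) ranged from 67.2 to 108 TPM. The synapsins, which tether vesicles to one another and to actin, differed from each other in level. Syn1 ranged from 27.9 to 39.9 TPM and Syn2 from 27.3 to 44.98 TPM, and these ranges overlapped, while Syn3 stayed between 7.08 and 9.74 TPM. The SV2 glycoproteins formed a steep order, with Sv2a at 20.7 to 33.9 TPM, Sv2b at 8.33 to 10.4 TPM and Sv2c, a form known best from the basal ganglia, at 0.52, 0.06 and 0.10 TPM in WT and 0.27, 0.19 and 0.32 TPM in cKO. Sv2c had 2 to 8 reads per library and was the only gene of the 36 too low to be tested.

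Within the SNARE machinery, 1 vesicle SNARE predominated. Vamp2 (synaptobrevin-2) was measured at 164, 116 and 145 TPM in WT and 179, 131 and 128 TPM in cKO. Vamp1 (synaptobrevin-1), a form prominent in spinal cord and brainstem, was measured at 4.69, 4.49 and 4.36 TPM in WT and 3.70, 4.48 and 4.16 TPM in cKO. The Vamp2 level was 25.8 to 48.4 times that of Vamp1 within a library. The membrane SNAREs Snap25 and Stx1a (syntaxin-1A) ranged from 58.9 to 100.2 TPM and from 21.2 to 28.5 TPM. Of the complexins, which clamp and release the assembled SNARE complex, Cplx2 was measured at 115, 98.8 and 103 TPM in WT and 116, 93.4 and 92.7 TPM in cKO. Cplx1 was measured at 24.8, 19.6 and 25.7 TPM in WT and 25.2, 18.5 and 19.0 TPM in cKO, so that Cplx2 stood 4.02 to 5.06 times above Cplx1 within a library.

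The genes of the active zone were of low to middle level per transcript length. Unc13a (Munc13-1), the factor that primes vesicles for fusion, ranged from 19.3 to 31.5 TPM. The giant scaffold genes Bsn (Bassoon) and Pclo (Piccolo) ranged from 10.5 to 17.6 TPM and from 8.49 to 12.6 TPM. Rims2 ranged from 14.0 to 18.2 TPM, above its paralog Rims1 in every library. The latter, also a scaffold that links Rab3, Munc13 and calcium channels, was measured at 3.00, 2.19 and 3.12 TPM in WT and at 2.92, 2.23 and 2.61 TPM in cKO. The neurexin Nrxn2 ranged from 21.3 to 29.4 TPM. Nrxn3 was measured at 2.75, 2.83 and 3.53 TPM in WT and at 3.68, 3.02 and 4.16 TPM in cKO, and lay below Nrxn2 in all 6 libraries.

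On the postsynaptic side, Dlg4, which encodes the scaffold PSD-95 of excitatory synapses, was the highest, at 110, 85.9 and 89.5 TPM in WT and 111, 75.9 and 74.0 TPM in cKO. Nlgn2, the neuroligin of inhibitory synapses, followed at 110, 74.3 and 81.8 TPM in WT and 108, 72.4 and 70.0 TPM in cKO. Their ranges overlapped almost fully, but within libraries Dlg4 was level with Nlgn2 in WT replicate 1 and above it in all others. Nlgn3 ranged from 21.9 to 32.2 TPM and Nlgn1, the neuroligin of excitatory synapses, from 5.05 to 5.85 TPM. The Shank scaffolds, which link PSD-95 complexes to Homer and actin, had the order Shank1, Shank2, Shank3 in every library. Shank1 was measured at 41.9, 31.1 and 34.5 TPM in WT and 43.4, 26.9 and 29.7 TPM in cKO. Shank2 was measured at 14.0, 9.98 and 10.7 TPM in WT and 15.02, 8.86 and 9.59 TPM in cKO. Shank3 was close beneath, at 11.2, 6.93 and 7.96 TPM in WT and 10.1, 7.45 and 8.32 TPM in cKO. The ratio of Shank2 to Shank3 was 1.15 to 1.48 in the 6 libraries, whereas that of Shank1 to Shank2 was 2.89 to 3.24. Homer1 ranged from 20.2 to 27.9 TPM and Dlg2 (PSD-93) from 8.20 to 14.3 TPM.

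Most of these genes were highest in the same library of each genotype. On the CPM scale, 23 of the 35 tested genes (65.7%) were highest in WT replicate 1 among the WT libraries and in cKO replicate 1 among the cKO libraries, against 25.2% of all 13340 genes tested. In the cKO group alone, 30 of the 35 genes were highest in replicate 1, including all 9 postsynaptic genes, against 38.6% of all genes. The exceptions in the cKO group were Syt11, Vamp1 and Rims2, highest in replicate 2, and Syt13 and Nrxn3, highest in replicate 3. Over the 35 genes the deviations of the 2 replicate 1 libraries from their group means had a correlation of 0.71, given as a description, since the genes share libraries and depth.

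**Figure D2:**
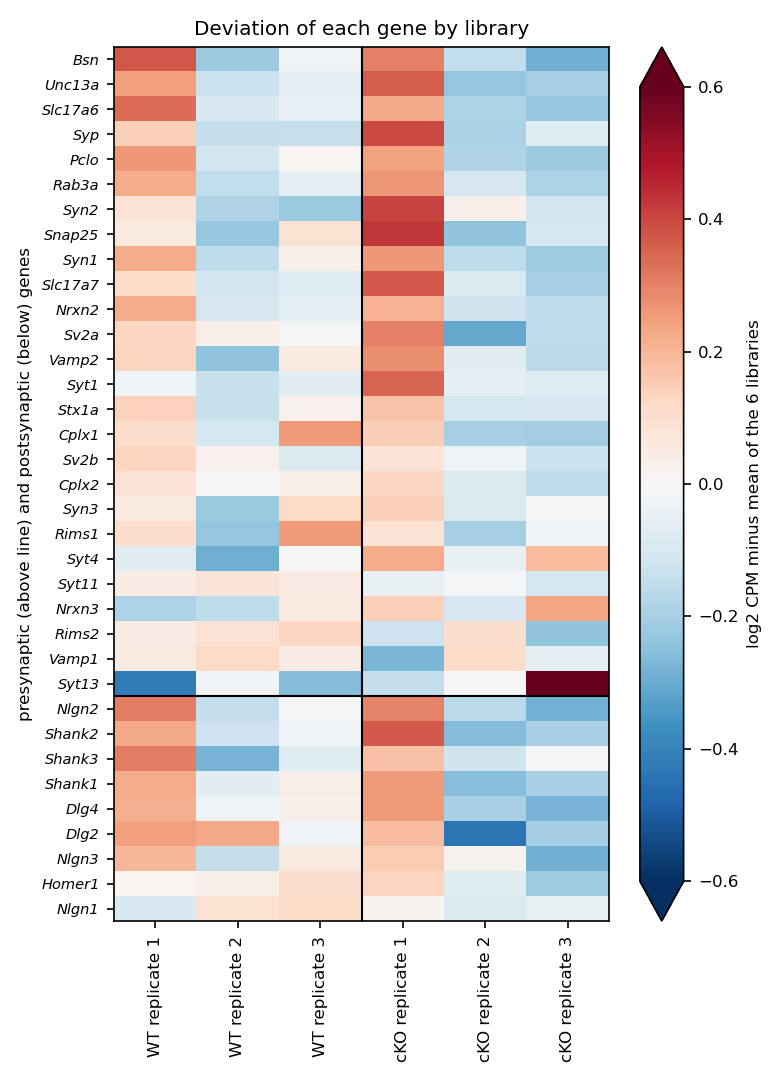
Deviation of each tested synaptic gene in each library, as log2 CPM minus its mean over the 6 libraries, with red above and blue below the mean. Genes are ordered within the presynaptic and postsynaptic sets by their values in the replicate 1 libraries. The columns of the 2 replicate 1 libraries are red for most genes, and Syt13 is high in cKO replicate 3.

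The synaptic genes moved with markers of cortical neurons between libraries, and with those of several other cell types. The summed TPM of the 27 presynaptic genes was 1419, 1109 and 1215 in WT and 1500, 1119 and 1138 in cKO. The summed TPM of the 9 postsynaptic genes was 364, 273 and 293 in WT and 366, 251 and 250 in cKO. Neuron markers summed to 4901, 3795 and 4291 TPM in WT and 5163, 3857 and 3870 TPM in cKO. All 3 sums were highest in the replicate 1 library of each genotype, whereas 10 radial glia markers summed to 2540 and 2459 TPM in the replicate 1 libraries of WT and cKO and to 3286 to 3458 TPM in the other 4. A peak in replicate 1 of both genotypes was not particular to neurons. Sums of intermediate progenitor, Cajal-Retzius, erythroid and microglia markers were also highest there. Erythroid markers, for example, summed to 6180, 4908 and 4236 TPM in WT and 7677, 5390 and 4593 TPM in cKO. Endothelial, interneuron and meninges and epidermis sums did not peak there in both genotypes. The presynaptic sum was 28.3% to 29.4% of the neuron marker sum in all 6 libraries. The postsynaptic sum was 7.42%, 7.19% and 6.82% of it in WT and 7.08%, 6.51% and 6.46% in cKO. The presynaptic share thus spanned 1 narrow range, while the postsynaptic shares of the genotypes overlapped, with the lowest values in cKO replicates 2 and 3. The part of the neuron content of each library in the levels of the synaptic genes was not tested.

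**Figure D3:**
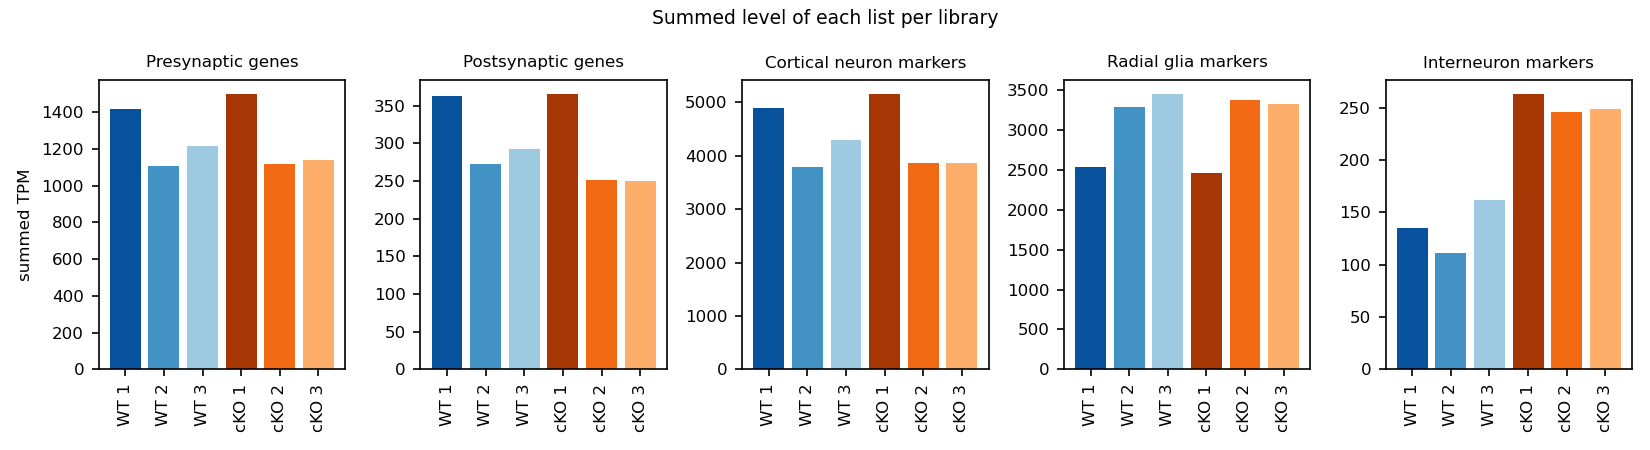
Summed TPM per library of the presynaptic genes, the postsynaptic genes and the markers of cortical neurons, radial glia and interneurons (bars start at 0, blue WT, orange cKO, replicates 1 to 3 from dark to light). The synaptic and neuron sums are highest in the replicate 1 libraries, the radial glia sum is lowest there, and the interneuron sum is above the WT range of 111 to 162 TPM in all cKO libraries.

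Loss of Ybx1 was not accompanied by a change of any synaptic gene that passed the test. No member had an adjusted p under 0.05 with edgeR, and neither had any of the 13340 genes tested (0%). With DESeq2, 2 genes were higher and 3 lower in cKO at that threshold, none of them a member. Ybx1 itself, at -3.00 on the log2 scale, had an adjusted p of 0.128 in the edgeR test. A missing call in that test therefore does not show that a gene was unchanged. At an unadjusted p under 0.05, 1 member was higher in cKO (background 1.75% of all genes) and 0 were lower (background 1.81%). No member was higher in every cKO library than in every WT library (background 4.21%), and 1 was lower in every cKO library (background 4.83%). Of 35 genes, these shares are near the background. Fold changes ranged from -0.28 (Dlg2) to 0.52 (Syt13) on the log2 scale. The 95% interval lay within 1 log2 unit of no change for 34 of the 35 genes and within 0.5 for 31. Over all 13340 genes tested, these numbers were 12204 and 9629. Changes of 2-fold or more thus lay outside the intervals of all tested members but Syt13, while Sv2c had no interval.

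The 2 genes that met a less strict rule were both synaptotagmins. Syt4 was measured at 105, 90.3 and 110 CPM in WT and at 129, 107 and 126 CPM in cKO. Its fold change was 0.24 on the log2 scale (SE 0.10, 95% interval 0.01 to 0.48), with an unadjusted p of 0.046 and an adjusted p of 0.99995 from edgeR. cKO replicate 2 lay within the WT range, so the groups overlapped. Syt4 (chr18:31437808-31447415, GRCm38) overlaps the gene Gm26658 on the other strand, and reads of the 2 cannot be told apart without strand information. Syt11 (chr3:88744699-88775159) was measured at 419, 429 and 421 CPM in WT and at 394, 404 and 378 CPM in cKO. The groups did not overlap, and the means were 423 ± 5.2 CPM (SD, n = 3) in WT and 392 ± 13 CPM (SD, n = 3) in cKO. The fold change of Syt11 was -0.11 (SE 0.07, 95% interval -0.26 to 0.05) with an adjusted p of 0.99995 from edgeR. The estimates of both genes kept their sign in all 16 alternative analyses, but the unadjusted p of Syt4 was above 0.05 without WT replicate 1, the library labelled WT replicate 2, cKO replicate 1 or cKO replicate 3.

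**Figure D4:**
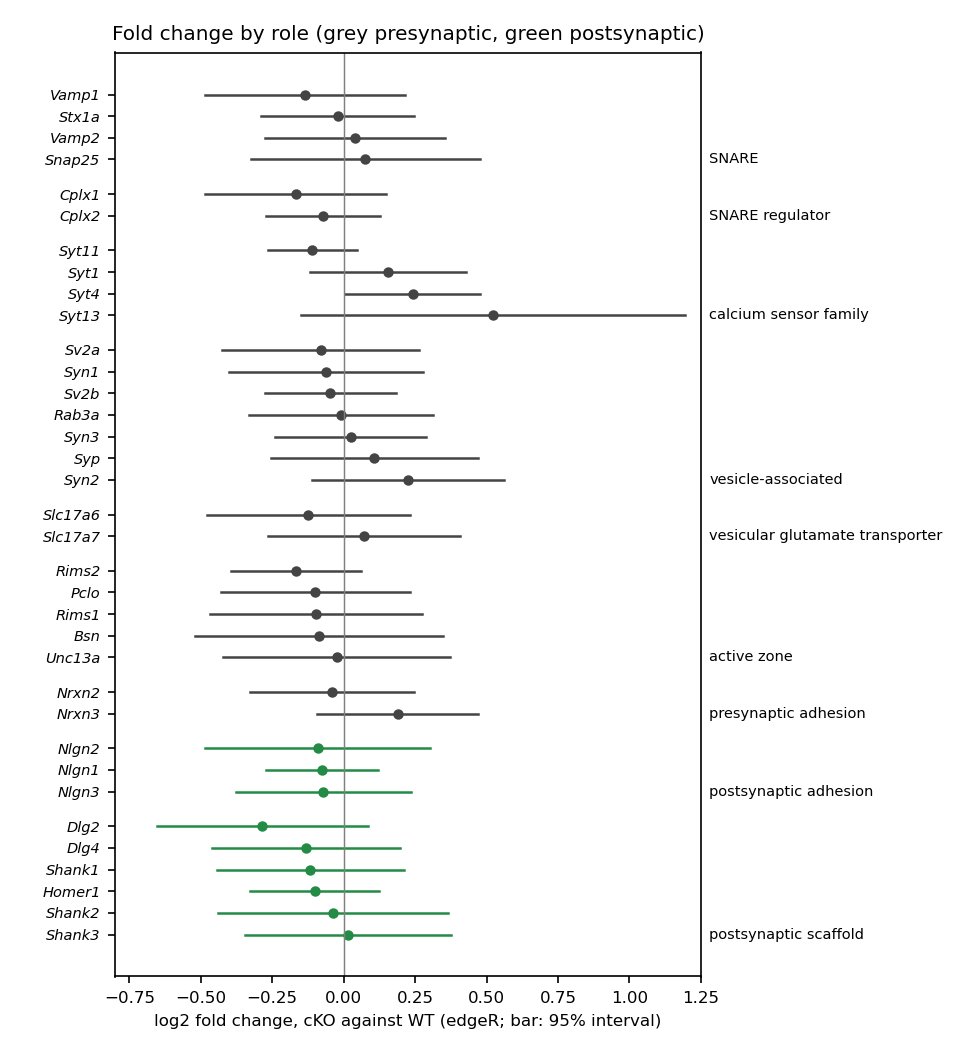
Log2 fold change of the 35 tested synaptic genes, cKO against WT, from edgeR on 3 libraries a group, with 95% intervals as bars, grouped by role. Presynaptic genes are grey and postsynaptic genes green. The interval of Syt4 alone lies wholly above 0, and that of Syt13 is the widest.

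By role, the estimates were small and most were negative. Of the fusion machinery, the SNARE genes Snap25 (0.08, SE 0.17), Vamp2 (0.04, SE 0.14), Stx1a (-0.02, SE 0.12) and Vamp1 (-0.14, SE 0.15) gave 2 positive and 2 negative values. Both complexins gave negative values, at -0.17 (SE 0.14) for Cplx1 and -0.07 (SE 0.09) for Cplx2. In the synaptotagmin family 3 of 4 values were positive, with Syt1 at 0.16 (SE 0.12) and Syt13 at 0.52 (SE 0.29) beside Syt4. For Syt13 the estimate was 0.15 without cKO replicate 3, the library that held the meninges and epidermis transcripts. The 7 tested vesicle-associated genes ranged from -0.08 (Sv2a, SE 0.15) to 0.23 (Syn2, SE 0.14), with a median of -0.01. The 5 active zone genes were all negative, from -0.03 (Unc13a, SE 0.17) to -0.17 (Rims2, SE 0.10), with a median of -0.10. Without WT replicate 1, Bsn (0.10), Pclo (0.02) and Unc13a (0.10) were positive. Without WT replicate 3, Rims1 was at 0.01, and without cKO replicate 2 Unc13a was at 0.08. Bsn (0.03) and Unc13a (0.07) were also positive without cKO replicate 3. The neurexins were split, with Nrxn3 at 0.19 (SE 0.12) and Nrxn2 at -0.04 (SE 0.12). None of these values passed the test. Exons of 14 of the 36 genes overlap a gene on the other strand, and without strand information their reads cannot be told apart. Besides Syt4 these are Syn1 (Araf), Syn2 (Timp4), Syn3 (Timp3), Rab3a (Mpv17l2), Unc13a (Colgalt1), Nrxn2 (Gm14964 and Slc22a12), Syp, Sv2b, Pclo, Nrxn3, Nlgn1, Shank1 and Shank3, so the limit holds for their levels too. Exons of Bsn (Gm47303), Nlgn3 (Gm21986) and Dlg2 (Gm45131 and Gm45159) overlap genes on the same strand, which strand information would not resolve.

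On the postsynaptic side, 8 of 9 estimates were negative, against 16 of 26 on the presynaptic side and 49.2% of all genes. Of 12 cortical neuron markers, 9 also had negative estimates (75%, median -0.05). The median log2 fold change was -0.09 over the postsynaptic and -0.03 over the presynaptic genes, against 0.00 over all genes. The 3 neuroligins lay close together, from -0.07 (Nlgn3, SE 0.13) to -0.09 (Nlgn2, SE 0.17). Dlg2 had the most negative estimate of all members, at -0.28 (SE 0.16), and was measured at 40.1, 39.6 and 33.4 CPM in WT and at 38.4, 25.0 and 29.4 CPM in cKO. Dlg4 (-0.13, SE 0.14), Shank1 (-0.12, SE 0.14), Homer1 (-0.10, SE 0.10), Shank2 (-0.04, SE 0.17) and Shank3 (0.02, SE 0.16) followed. The ratio of the presynaptic to the postsynaptic summed TPM was 3.90, 4.07 and 4.15 in WT and 4.10, 4.46 and 4.55 in cKO. The ratios overlapped, since cKO replicate 1 lay within the WT range while cKO replicates 2 and 3 lay above it. No test was made of the difference between the sides, as genes are not replicates.

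Which way the synaptic genes leaned depended on which libraries were kept. With all 6 libraries, 24 of the 35 estimates were negative (68.6%, against 49.2% of all genes and 75% of the cortical neuron markers). Without WT replicate 1 the number was 12, and without cKO replicate 1 it was 30. Leaving out cKO replicate 3 gave 14 negative estimates and leaving out cKO replicate 2 gave 18 (51.4%, against 50.8% of all genes), whereas leaving out the library labelled WT replicate 2 gave 28. Without cKO replicate 1, 15 members were lower in every remaining cKO library (background 12.5%) and 5 had an unadjusted p under 0.05 with a lower value in cKO (background 3.57%). In the cKO group 30 of the 35 genes were highest in the library left out there, while WT replicate 1 was kept. Lower values in cKO were thus favoured by that choice, and these counts are a description only. As both replicate 1 libraries stood high, they were also left out together, a choice made after the data were seen. In that comparison of 2 against 2 libraries 28 of 35 estimates were negative, against 48.6% of all genes.

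**Figure D5:**
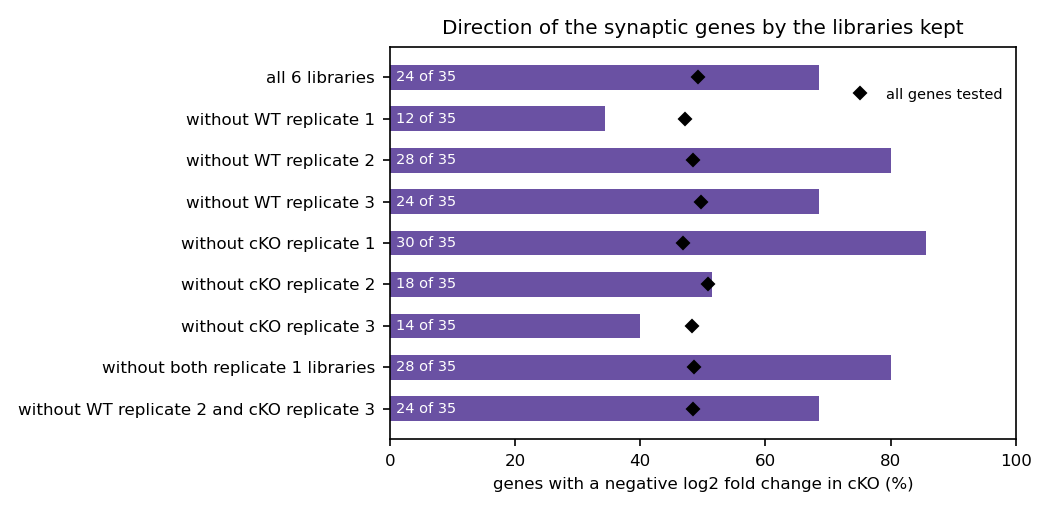
Percent of the 35 tested synaptic genes with a negative log2 fold change in cKO (bars, with the number in white) and of all genes tested (diamonds), for all 6 libraries and with libraries left out. The bars run from 34.3% without WT replicate 1 to 85.7% without cKO replicate 1, while the diamonds stay between 46.9% and 50.8%.

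Without both replicate 1 libraries, 16 members were lower in both cKO libraries than in both WT libraries (background 19.4%) and 2, Syn2 and Syt13, were higher in both (background 18.5%). At an unadjusted p under 0.05, 5 members were lower in cKO (background 3.74%) and 0 were higher (background 3.6%). Of the 5, 4 encode postsynaptic scaffolds, with fold changes of -0.42 for Dlg2 (SE 0.13), -0.23 for Dlg4 (SE 0.06), -0.21 for Homer1 (SE 0.08) and -0.21 for Shank1 (SE 0.07), and the fifth was the vesicle glycoprotein gene Sv2a at -0.24 (SE 0.09). The adjusted p from edgeR was 0.675 for each of these 5 genes, so none passed the test. The libraries left out were picked because the members stood high in them, so these counts and values are a description only. The median was -0.16 over the postsynaptic and -0.05 over the presynaptic genes in this comparison. In the 4 libraries kept, neuron markers summed to 3795 and 4291 TPM in WT and to 3857 and 3870 TPM in cKO, and meninges and epidermis markers to 525 TPM in cKO replicate 3. The library labelled WT replicate 2, with Ybx1 at 528 CPM between both genotypes, was also among those kept. The part of any of these in the differences was not tested.

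Of 6 paralog ratios computed, only that of the vesicular glutamate transporters, which load glutamate into vesicles, did not overlap between the genotypes. Slc17a6 (VGLUT2) was measured at 74.8, 51.5 and 53.5 TPM in WT and 69.2, 47.7 and 48.2 TPM in cKO. Slc17a7 (VGLUT1) was measured at 73.6, 57.7 and 60.5 TPM in WT and 86.9, 59.0 and 56.7 TPM in cKO. Each gene alone overlapped between the genotypes and was highest in the replicate 1 libraries, with fold changes of -0.12 (SE 0.15) for Slc17a6 and 0.07 (SE 0.15) for Slc17a7. The ratio of Slc17a6 to Slc17a7 was 1.02, 0.89 and 0.89 in WT and 0.80, 0.81 and 0.85 in cKO, a difference of -0.18 on the log2 scale. The ratios of the 2 groups did not overlap, with a two-sided exact permutation p of 0.1, the smallest that 3 against 3 libraries allow, and an adjusted p of 0.6 over the 6 paralog ratios computed. The ratios of Vamp2 to Vamp1, of Cplx2 to Cplx1 and among the 3 Shank genes overlapped between the genotypes, with exact permutation p of 0.2 to 0.7. These ratios were formed after the values of the genes had been seen. Other pairs of related members were not among the 6, so the transporter pair need not be the only 1 without overlap. Syn1 was above Syn2 in every WT library, at 39.6 against 37.2, 27.91 against 27.89 and 32.4 against 27.3 TPM. In every cKO library Syn1 was below Syn2, at 39.9 against 44.98, 28.1 against 32.3 and 27.9 against 30.6 TPM. No test was made of that pair.

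Other synaptic genes outside the 36 were described for comparison from a fixed list. Over all genes, 49.2% of estimates were negative, and an unadjusted p under 0.05 was reached by 1.81% with a lower and 1.75% with a higher value in cKO. Of 44 tested presynaptic genes, 30 had negative estimates (median -0.06), 3 had an unadjusted p under 0.05 with a lower value in cKO and 0 with a higher value. Of 30 tested postsynaptic genes, 18 had negative estimates (median -0.04), 3 had such a p with a lower value and 1 with a higher value. Of the 44, 2 were higher and 4 lower in cKO without overlap, and of the 30, 1 was higher and 3 were lower. Over all genes these shares were 4.21% and 4.83%. The 4 genes with the smallest p, picked by that p, were among those without overlap. Cbln2, a secreted organiser that bridges neurexins to postsynaptic receptors, was the 1 higher gene counted among the postsynaptic genes. Its placement there, and that of Cbln1, was a choice made for the list. Cbln2 was measured at 10.8, 9.11 and 12.3 CPM in WT and 13.6, 16.7 and 15.6 CPM in cKO, a fold change of 0.51 (SE 0.14). Syt9, a calcium-binding synaptotagmin, was measured at 14.9, 13.2 and 15.2 CPM in WT and 10.1, 11.1 and 11.7 CPM in cKO, a fold change of -0.40 (SE 0.11). Homer2, a paralog of Homer1, gave -0.23 (SE 0.07) and Tanc2, a postsynaptic scaffold gene, gave -0.22 (SE 0.07). The adjusted p of all 4 was 0.99995 with edgeR from the fit across all genes, so none of them passed the test.

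No marker of another cell type passed the test, but some lists leaned 1 way beside these results, where 49.2% of all genes had negative estimates. All 6 intermediate progenitor markers had negative estimates (median -0.09). All tested markers of erythroid cells (7), microglia (4) and meninges and epidermis (4) had positive estimates. Of 5 endothelial markers 4 were positive, and of 10 radial glia markers 5 were. All 9 tested interneuron markers of 10 listed had positive estimates (median 0.75), with a summed TPM of 111 to 162 in WT and 246 to 263 in cKO and no marker at 0 among the 9. The lowest adjusted p among them was 0.0953 (Sst, edgeR). Of these 9 markers, 4 were higher in every cKO library than in every WT library (background 4.21%), and the others overlapped. Dlx1 (36.3 against 31.0 CPM) and Dlx2 (19.2 against 14.6 CPM) were higher in WT replicate 3 than in cKO replicate 1. Of 6 Cajal-Retzius cell markers 5 had negative estimates (median -0.31), with summed TPM that overlapped, at 108 to 135 in WT and 87.1 to 113 in cKO. Slc32a1, the vesicular GABA transporter, is counted both among the interneuron markers and among the other presynaptic genes. The part of these cell types in the values of Syt4, Syt11 and the transporter ratio was not tested.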

How the data were processed

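RNA-seq had been performed on total RNA extracted with Trizol from E13.5 mouse cortex, with 3 WT and 3 cKO libraries. The submitters' processing notes name HISAT2 (2.2.1), Bowtie2 (2.4.5), RSEM (1.3.1) and the build GRCm38/mm10. The annotation and the use of strand are not given in the sources used here, and the series speaks of several sequencing batches without saying which library each held. The authors deposited estimated counts per gene, with FPKM and TPM beside them (TPM and FPKM are corrected for transcript length). The FPKM values and 6 columns of averages were not used. The deposited columns named Ctrl were matched to the WT samples by replicate number.

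Estimated counts (10.9% of values not whole) were rounded. Genes were filtered with filterByExpr (minimum count 10, minimum total 15), scaled by TMM and tested with edgeR (4.0.16, R 4.3.3) by the quasi-likelihood test for genotype, with Benjamini-Hochberg adjustment over all 13340 genes tested. CPM values are scaled by TMM, and 95% intervals use the moderated degrees of freedom of the fit. TPM was used for levels between genes. RLE and upper-quartile scaling, other filters, a replicate block, left-out libraries, DESeq2 (1.42.0), limma-voom (3.58.1) and limma on log2(TPM + 1) were the alternatives. The scripts were tested on simulated data. The most similar pair of libraries had equal counts for 1.66% of genes, so all were kept as separate. Nothing says that replicates were separate litters, and p-values measure the spread between these libraries.

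Values in every library are given for members with an unadjusted p under 0.05 or without overlap, the 6 highest and 4 lowest by mean TPM and 1 paralog set for several roles. Of other synaptic genes, the 4 lowest by p are named. Dlg2 was added after its values were seen. The members and lists were chosen with earlier results of these data known.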

Additional observations from a re-analysis of the deposited data

How the results depend on the processing

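No member passed an adjusted p of 0.05 in any of the 16 alternatives, and the lowest adjusted p of a member was 0.481 (Syt4). Of the 35 tested members, 15 kept their sign in all 16 alternatives (10 negative, 5 positive). Leaving out each library in turn reversed 20 members, whose log2 fold changes then ranged as follows: Bsn -0.27 to 0.10, Nlgn2 -0.28 to 0.052, Nlgn3 -0.16 to 0.042, Nrxn2 -0.16 to 0.069, Pclo -0.25 to 0.015, Rab3a -0.15 to 0.11, Rims1 -0.22 to 0.013, Shank2 -0.25 to 0.075, Shank3 -0.11 to 0.20, Slc17a6 -0.28 to 0.027, Slc17a7 -0.11 to 0.18, Snap25 -0.14 to 0.20, Stx1a -0.11 to 0.048, Sv2a -0.27 to 0.039, Sv2b -0.10 to 0.010, Syn1 -0.22 to 0.040, Syn3 -0.073 to 0.091, Syp -0.081 to 0.22, Unc13a -0.24 to 0.10 and Vamp2 -0.094 to 0.13. The presynaptic median ranged from -0.12 to 0.07 and the postsynaptic median from -0.25 to -0.02 in those fits.

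Over the fits leaving out 1 library, members with an unadjusted p under 0.05 numbered 0 to 1 (higher) and 0 to 5 (lower), and members without overlap 0 to 2 (higher) and 1 to 15 (lower). Over all genes, 0.895% to 4.23% and 0.873% to 3.57% had such a p, and 6.86% to 12.6% and 6.89% to 12.5% did not overlap. The member counts of 5 and 15 came from the fit without cKO replicate 1, where most members stood high. All genes called numbered 0 to 1 in each direction at an adjusted p, and 121 to 571 (higher) and 118 to 482 (lower) at an unadjusted p under 0.05. Ybx1 ranged from -3.28 to -2.75, and had an adjusted p under 0.05 only without the library labelled WT replicate 2.

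When the 2 libraries that stood apart (the library labelled WT replicate 2, with cKO replicate 3) were dropped, Ybx1 was at -3.49 (adjusted p = 0.0188), an adjusted p under 0.05 was reached by 1 gene in each direction, and an unadjusted one by 105 genes higher and 141 lower. There, 0 members were higher at that p, and without overlap 1 member was higher and 2 were lower, against 14% and 13% of all genes. Syn3 (-0.058), Sv2b (0.0053), Rab3a (0.0032) and Shank3 (-0.091) reversed. Leaving out both replicate 1 libraries gave 481 genes higher and 499 lower at an unadjusted p, 0 and 5 members, and 2 and 16 members without overlap, and reversed Snap25 (-0.11), Vamp2 (-0.022), Syn3 (-0.0023) and Slc17a7 (-0.041). Upper-quartile scaling reversed Rab3a (0.0038), and limma on log2(TPM + 1) reversed Stx1a (0.0050) and gave 0 members higher at an unadjusted p. Without the filter on low counts, 390 genes were higher at an unadjusted p and 1 member, Sv2c, was higher without overlap (4.05% of all genes), on 6, 2 and 3 reads in WT and 8, 6 and 7 in cKO, where WT replicate 1 and cKO replicate 2 were tied at 6. DESeq2 called 2 genes higher and 3 lower, with Ybx1 at -3.00 (adjusted p = 5.81e-10). Apart from effects of fewer libraries or more genes tested, the cause was not tested.

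The labels number the libraries of both genotypes 1 to 3, but nothing says that a number marks a shared litter or batch, so they were not taken as pairs. Over all genes the deviations of same-numbered libraries correlated at 0.45, 0.32 and -0.01, and cKO replicate 3 did not correlate best with its own number. Over the members these correlations were 0.71, 0.18 and 0.27. With the replicate number as a block, Ybx1 was at -2.95 (adjusted p = 0.0381), 1 gene was called in each direction, an unadjusted p under 0.05 was reached by 476 genes higher and 614 lower, and 2 members were higher (Syn2, Syt4) and 2 lower (Dlg2, Slc17a6). The SE of Slc17a6 was 0.05 with the block and 0.15 without it, while that of Vamp1 was 0.15 in both fits. With 2 to 8 reads per library, depth did not allow Sv2c to be compared.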
